A study of Mus musculus with 16 samples.

Results

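Interferon-stimulated genes are genes whose transcription rises when a cell senses interferon. A set of 42 of them was examined here, and all 42 were found by gene symbol among the 43346 genes of the deposited table. They were chosen by name as a known gene module. By role they were sorted into 4 transcription factors, 7 members of the IFIT and ISG15 system, 5 sensors of nucleic acid, 5 members of the oligoadenylate synthetase family, 3 members of the PARP9-DTX3L system, 7 interferon-inducible GTPases and 11 other antiviral effectors. RNA was sequenced in 16 libraries from endothelial cells (ECs), the inner lining of vessels, sorted from the lungs of FVB mice. The study describes the cells as coming from the lungs used for its chromatin assay, in which a sample was a mouse, and libraries were therefore taken as separate mice. The mice of every group carried a Col1a1-GFP transgene, which marks collagen-producing cells. The study used mice of both sexes and does not give the sexes of each group. Its methods describe a sort for CD31 on cells that lacked CD45, EpCAM and GFP. Young Sham (n = 5) and Young Bleo (n = 4) mice were 2 months old, and Aged Sham (n = 3) and Aged Bleo (n = 4) mice were 18 months old. Bleo mice received bleomycin, which damages lung tissue and leaves scars, into the trachea, sham mice received the carrier, and the cells were collected 30 days later. Libraries are named here by group and by the number in their title, such as Aged Bleo 5.

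Type I interferons and interferon gamma bind separate receptors on the cell surface. Type I interferon activates a complex of transcription factors that holds STAT2 and IRF9 and binds the interferon-stimulated response element (ISRE) in the promoters of its target genes. Interferon gamma acts through the gamma-activated site (GAS), and both routes share many targets. The proteins made from these genes block viral replication, sense foreign RNA and DNA, and attack the compartments in which microbes live. Endothelial cells carry both receptors and are known to respond to both kinds of interferon.

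Promoter sequence was available in the RefSeq table of the mouse genome (GRCm38.p6) for 30 of the 42 genes, as 35 promoters that reach from 250 bases before to 50 bases after the transcription start. The ISRE core was searched on both strands as GAAA, any 2 bases and GAAA again, overlapping matches included, and GAS as TTCNNNGAA, which is its own reverse complement. The ISRE core was found in 17 of the 30 genes and in 51.4% of their promoters, against 3.44% of all 32851 promoters of the table. GAS was found in 8 of the 30 genes and in 22.9% of their promoters, against 8.30% of all promoters. The map of motif positions shows 26 ISRE core matches, of which 20 lay within the 150 bases before the start. The stretches below are shown because they belong to genes on which the results turn, with the match in capitals and each read along the strand of its gene. Ifit1, Oas1a, Oas3 and Rsad2 were called higher in at least 1 comparison, Isg15 was not called in any, Gbp2, Igtp and Irgm1 are GTPases, and Irf1 holds a GAS match and no ISRE core match.
Ifit1, chr19:34640794-34640823, ISRE core: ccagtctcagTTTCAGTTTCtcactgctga
Oas1a, chr5:120907520-120907549, ISRE core: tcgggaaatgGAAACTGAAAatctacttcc
Oas3, chr5:120777715-120777744, ISRE core: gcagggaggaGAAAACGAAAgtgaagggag
Rsad2, chr12:26456553-26456582, ISRE core: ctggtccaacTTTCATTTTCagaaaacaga
Isg15, chr4:156200865-156200894, ISRE core: aaaggaaaccGAAACAGAAAatagctctgg
Gbp2, chr3:142620594-142620623, ISRE core: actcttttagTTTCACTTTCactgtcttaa
Igtp, chr11:58199512-58199541, ISRE core: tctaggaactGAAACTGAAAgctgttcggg
Irgm1, chr11:48871425-48871454, ISRE core: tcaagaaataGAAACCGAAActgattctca
Irf1, chr11:53769914-53769943, GAS: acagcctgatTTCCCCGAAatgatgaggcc
A match says that the letters are present in the window and not that a factor binds there.

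**Figure D1:**
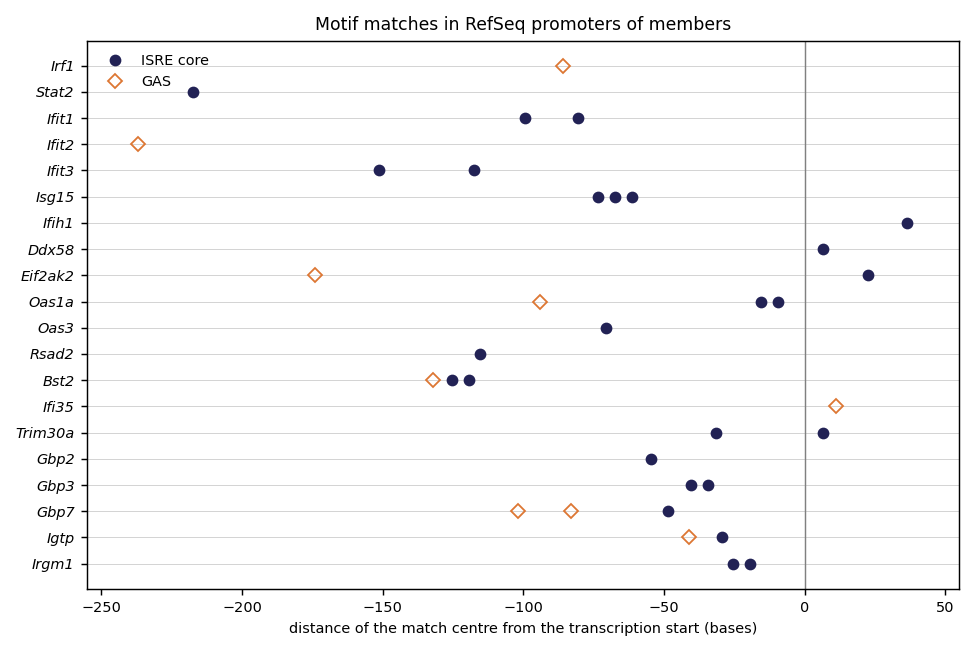
Each row is a gene with a match, the horizontal axis is the distance of the centre of the match from the transcription start in bases, filled circles are ISRE core matches and open diamonds are GAS matches. Of the 26 ISRE core matches, 20 lie within the 150 bases before the start, and Isg15, the Gbp genes, Igtp and Irgm1 have all of theirs there.

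Sequencing depth ranged from 20.9 to 71.0 mega counts (M) per library, with 15092 to 17259 genes at 10 or more counts in each. Young Sham 23 (20.9 M) and Aged Sham 13 (23.7 M) were the shallowest. All 6 endothelial markers examined were present, and their summed normalized count (the count divided by the DESeq2 size factor of its library) was 454978 to 494493 in Young Sham and 395508 to 434308 in Aged Sham, and it was lower in the injured groups, at 236411 to 373626 in Young Bleo and 241400 to 382620 in Aged Bleo. Markers of cells that the sort should remove were also present. The summed count of 10 macrophage markers was 3304 to 5336 in Young Sham, 7444 to 23228 in Aged Sham, 17953 to 60421 in Young Bleo and 26669 to 180124 in Aged Bleo, and no marker of the list was at 0 in every library of any group. DESeq2 called 0 of the 10 higher in Aged Sham, 5 in Young Bleo and 7 in Aged Bleo, each against Young Sham. The summed count of 4 mesothelial markers was 0.978 to 270 in Young Sham, 727 to 3087 in Aged Sham, 1141 to 3426 in Young Bleo and 153 to 1247 in Aged Bleo, and 3, 4 and 3 of the 4 were called higher in Aged Sham, Young Bleo and Aged Bleo against Young Sham, where Wt1 was at 0 in every library. Of 4 platelet markers 3 were called higher in Aged Sham, as were 1 of 4 neutrophil markers, 1 of 3 B cell markers and 1 of 6 fibroblast markers, and 4 of the 6 fibroblast markers were called lower in Aged Bleo. Of 5 pericyte and smooth muscle markers 2 were called lower in Aged Sham, 2 in Young Bleo and 5 in Aged Bleo, with summed counts of 6613 to 16256 in Young Sham, 3913 to 7164 in Aged Sham, 2674 to 6507 in Young Bleo and 1841 to 2800 in Aged Bleo. Of 6 general capillary markers 3 were called lower in Aged Sham and 2 higher in each injured group. Of 5 markers of aerocytes, the capillary cells specialised for gas exchange, 5 were called lower in Young Bleo and 2 in Aged Bleo. Of the 6 endothelial markers 1 was called higher and 2 lower in each injured group. The neutrophil list also had 1 marker called higher in each injured group, and 1 of 3 lymphatic markers was called higher in Young Bleo. The part of these cells, and of the lower endothelial sums, in the results was not tested. Aged Sham 14 and Aged Bleo 1 had the highest macrophage sums of their groups, at 23228 and 180124. In sorted bulk samples, fewer cells of a type and less RNA per cell cannot be told apart.

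In Young Sham ECs the 42 genes spanned a wide range of levels. FPKM (fragments per kilobase of gene, scaled to the size of the library) is used here to compare genes. By mean FPKM 8 genes were at 10 or more, 24 were between 1 and 10, and 10 were under 1. The most abundant was Bst2, which encodes tetherin, a protein that holds budding virus at the cell surface, at 86.0 ± 13.5 FPKM (SD, n = 5). It was followed by Ifi35 (63.5 ± 8.15 FPKM), by the transcription factor Irf1 (48.1 ± 2.80 FPKM) and by the GTPase Igtp (35.1 ± 17.0 FPKM). Isg15, a ubiquitin-like modifier that is conjugated to proteins, was at 12.9 ± 2.15 FPKM. At the lower end Oas2 was at 0.275 ± 0.173 FPKM and Rsad2 at 0.297 ± 0.110 FPKM, and Oas3 and Mx1 had 0 counts in all 5 libraries. Lung ECs of young sham mice thus held high levels of some interferon-stimulated transcripts and few or none of others.

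**Figure D2:**
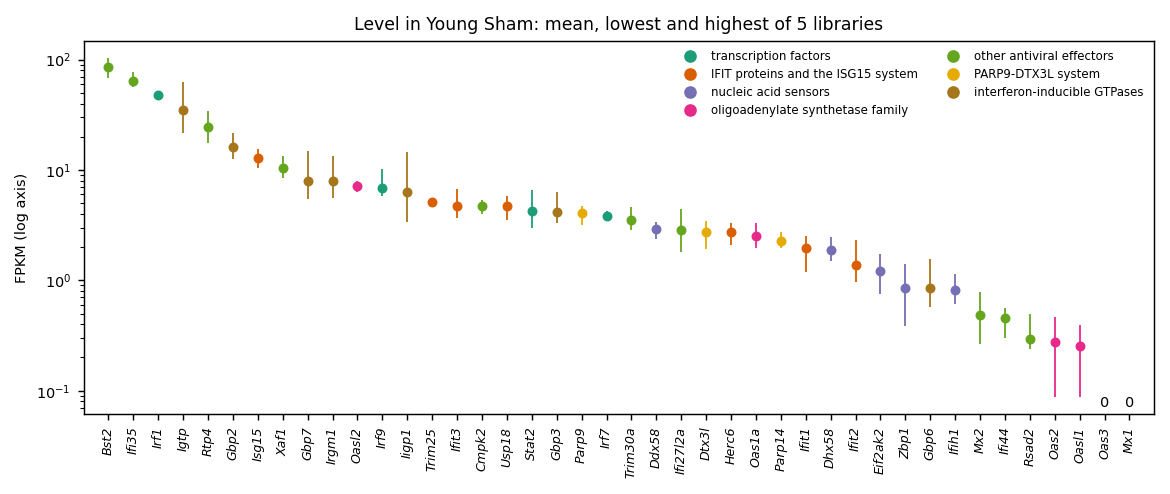
The 42 genes are ordered by their mean FPKM in Young Sham (log axis), points are means, lines run from the lowest to the highest of the 5 libraries, and colours mark the classes. Levels run from 86.0 FPKM for Bst2 to 0.256 FPKM for Oasl1, and Oas3 and Mx1 are at 0.

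A first comparison asked how the genes differed with age in the absence of injury. Between Aged Sham and Young Sham 5 of the 42 genes were called higher and 0 lower by DESeq2, against 2.24% of all tested genes higher and 1.12% lower. Without Aged Sham 14 the share of all genes called higher was 1.10%, and 4 members were called higher. A gene was called where its p, adjusted by the method of Benjamini and Hochberg over all genes, was 0.05 or less and its log2 fold change was 0.5 or more in size. On simulated data of Aged Sham against Young Sham DESeq2 made more false calls than that threshold allows and edgeR did not, so a call by DESeq2 alone is less certain. The other comparisons were not simulated. edgeR called 4 higher and 0 lower, against 0.699% and 0.164% of all genes. The genes were Ifit1, Oas1a, Oas2, Oas3 and Ifi27l2a, of which edgeR did not call Oas3. The median log2 fold change was 0.26 over the 42 genes and 0.02 over all genes tested, and 31 of the 42 were above 0. The second comparison asked how bleomycin acted in young mice, and here 8 genes were called higher and 0 lower, against 7.57% and 6.35% of all genes. Beside Ifit1, Oas1a, Oas2 and Ifi27l2a these were Zbp1, Oasl1, Mx1 and Rsad2, and edgeR called 5 higher and 0 lower (5.69% and 4.09% of all genes). The median over the members was 0.17, against 0.01 over all genes. In Aged Bleo, set against Young Sham, 10 genes were called higher (6.58% of all genes) and 1 lower (3.14% of all genes), with a median of 0.22 over the members and of 0.02 over all genes. The same 4 genes were joined by Usp18, Zbp1, Oas3, Mx1, Rsad2 and Ifi44, and the gene called lower was Ifi35. edgeR called 7 higher (4.20% of all genes) and 0 lower (1.49% of all genes).

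These 3 comparisons share the 5 Young Sham libraries. Ifit1, Oas1a, Oas2 and Ifi27l2a were called in all 3 of them, and in each of these 4 genes every Young Sham library was below every one of the other 11 libraries. Of all 18515 genes tested, 0.697% had their Young Sham libraries apart from the rest in this way. The macrophage sums were split in the same way, at 3304 to 5336 in Young Sham and 7444 or more in each of the other 11 libraries. The mesothelial sums were split likewise except for Aged Bleo 2, which at 153 lay within the Young Sham range. The part of these cells in the result was not tested. A further 4 genes were called higher in 2 of the 3 comparisons and 3 genes in 1. Ifi35 was called lower in 1, and the remaining 30 genes were called in none. In the deposited table Ifit1 (ENSMUSG00000034459) lies at chr19:34640871-34650009, Oas1a (ENSMUSG00000052776) at chr5:120896256-120907521, Oas2 (ENSMUSG00000032690) at chr5:120730333-120749853 and Ifi27l2a (ENSMUSG00000079017) at chr12:103442167-103443680 (mm10), all as protein-coding genes.

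**Figure D3:**
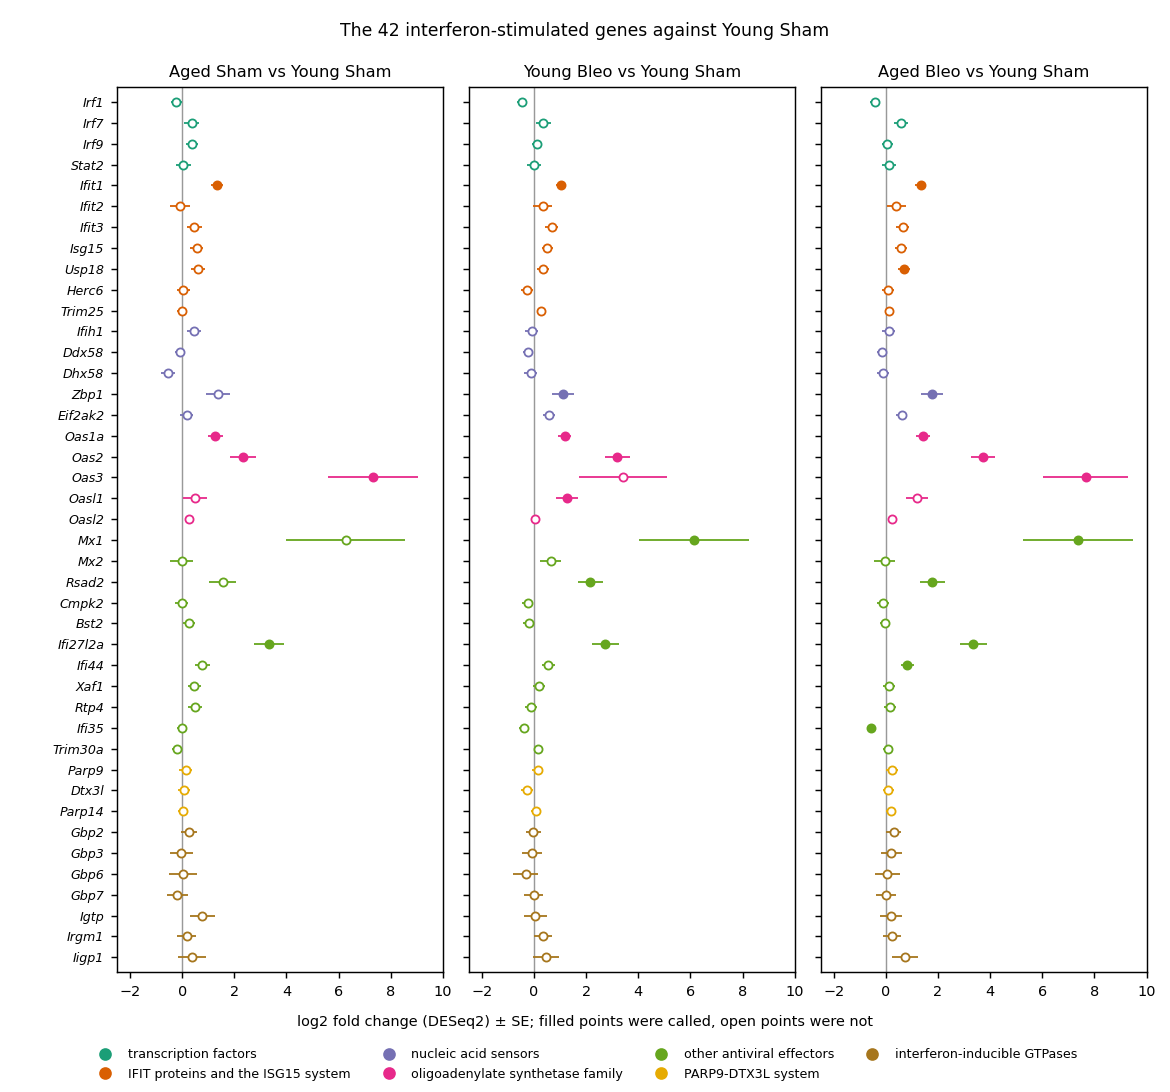
Each row is a gene, and each panel gives its log2 fold change against Young Sham with its SE from DESeq2, with filled points for called genes and colours for the classes. The called genes lie in the IFIT and ISG15 system, the sensors, the oligoadenylate synthetase family and the other antiviral effectors, and none lies among the transcription factors, the PARP9-DTX3L system or the GTPases.

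The oligoadenylate synthetases detect double-stranded RNA and make a short second messenger that activates RNase L, which then degrades RNA in the cell. Among members detected in every library, Oas2 had the largest log2 fold change in both injured groups. Its normalized counts were 51.0, 202, 185, 42.1 and 129 for Young Sham, 947, 1800, 977 and 751 for Young Bleo, 635, 922 and 290 for Aged Sham, and 2607, 1802, 1087 and 936 for Aged Bleo. The 3 other groups did not overlap Young Sham, and the lowest of their values was that of Aged Sham 15. The log2 fold change against Young Sham was 2.34 ± 0.507 (SE) in Aged Sham (DESeq2 adjusted p = 0.00058), 3.20 ± 0.466 in Young Bleo (adjusted p = 2.6e-09) and 3.73 ± 0.466 in Aged Bleo (adjusted p = 1.2e-12). Oas2 remained called in all 16 fits that left out 1 library, in each of these comparisons.

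Oas1a, another synthetase, had counts of 454, 503, 607, 395 and 430 in Young Sham and of 1080, 1396, 904 and 926 in Young Bleo. In Aged Sham it had 1307, 1427 and 731, and in Aged Bleo 1921, 1279, 1055 and 847. Young Sham was again below every other library, with log2 fold changes of 1.27 ± 0.280 in Aged Sham (DESeq2 adjusted p = 0.00080), 1.17 ± 0.257 in Young Bleo (adjusted p = 0.00017) and 1.42 ± 0.257 in Aged Bleo (adjusted p = 3.8e-06). The Oas1 genes are a cluster of near-identical copies, so that reads may be split between them.

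Oas3, the longest synthetase, was near the limit of detection. It had 0 counts in every Young Sham library, 1, 0, 3 and 6 raw counts in Young Bleo, 2, 59 and 30 in Aged Sham, and 45, 115, 0 and 59 in Aged Bleo. Set against a floor of 3 counts per Young Sham library, Aged Sham was at least 9.26-fold higher and Aged Bleo at least 11.7-fold higher, and these bounds fell to 4.39 and 7.74 when the library that counted most was left out. DESeq2 called both differences (adjusted p = 0.0022 and 0.00012), while edgeR called only that of Aged Bleo (adjusted p = 0.021, and 0.077 in Aged Sham), and the call in Aged Sham was lost without Aged Sham 14 (adjusted p = 0.070). Aged Bleo 3 had no count, so that the rise was not seen in all 4 libraries of that group.

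The synthetase-like genes Oasl1 and Oasl2 differed from each other. Oasl1, known to restrain translation of Irf7, had 105, 98.9, 57.4, 50.3 and 23.5 normalized counts in Young Sham and 97.0, 206, 119 and 224 in Young Bleo, and its log2 fold change of 1.26 ± 0.432 passed (DESeq2 adjusted p = 0.027, edgeR adjusted p = 0.070). The groups overlapped, since Young Bleo 17 was below the 2 highest Young Sham libraries. That call was lost in 5 of the 16 fits that left out 1 library, among them those without Young Bleo 18 (adjusted p = 0.111) and Young Bleo 20. In Aged Bleo the log2 fold change was 1.19 ± 0.431 and missed the threshold (adjusted p = 0.051), and leaving out Aged Bleo 3, among others, brought it past (adjusted p = 0.030). Oasl2, the most abundant gene of the family, had log2 fold changes of 0.04 to 0.27 in the 3 comparisons, none of them called. Its counts were 2503, 2592, 2975, 3278 and 2657 for Young Sham, 2940, 3056, 2301 and 3239 for Young Bleo, 3389, 3832 and 2892 for Aged Sham, and 3647, 3140, 3145 and 3204 for Aged Bleo, so that all groups overlapped. All 5 genes of the family were highest in Aged Sham 14 among the Aged Sham libraries. That library also had the highest macrophage sum of its group and a summed count of 4 platelet markers of 351361, against 65380 and 95278 in the others, and the part of these cells in the result was not tested.

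**Figure D4:**
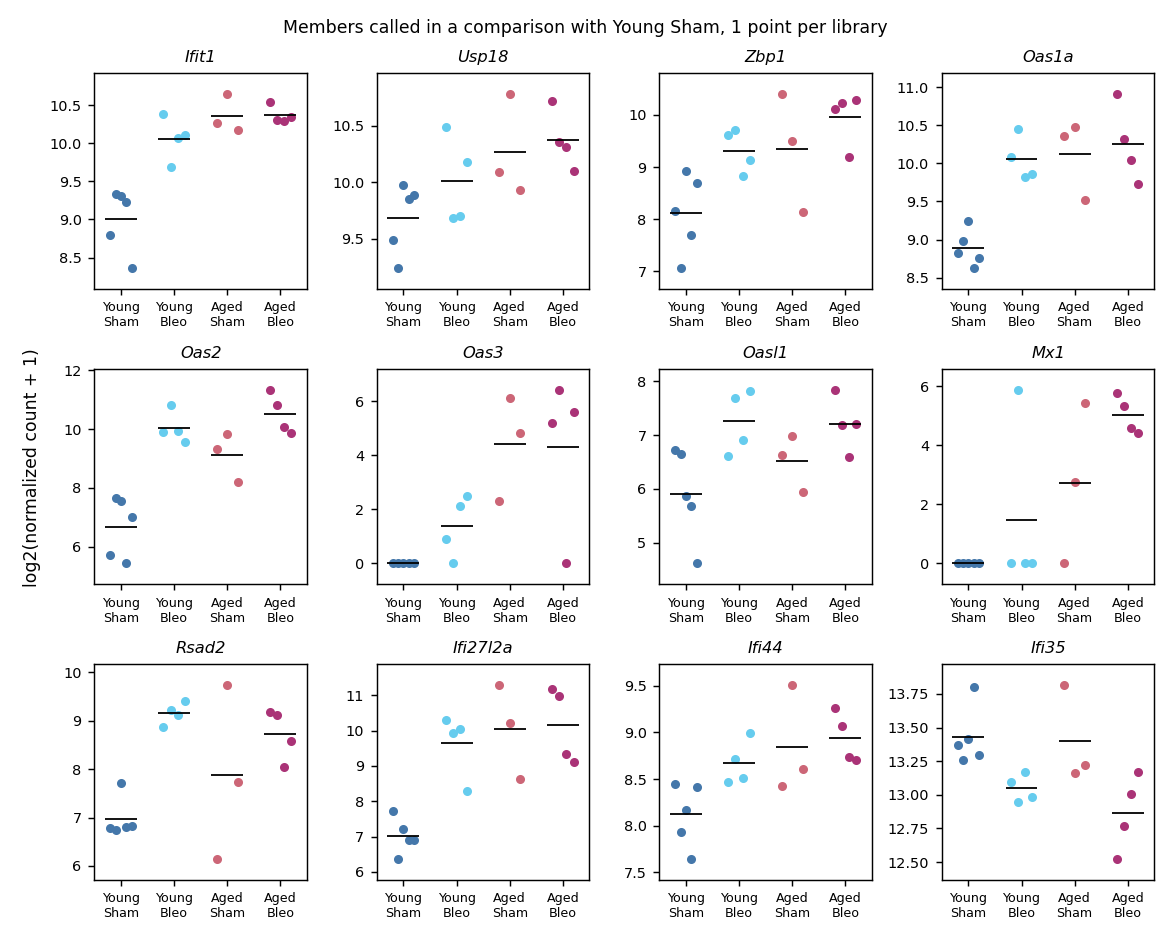
Each point is a library, the vertical axis is log2(normalized count + 1), and black lines are the means of these values per group for the 12 genes called against Young Sham. In Ifit1, Oas1a, Oas2 and Ifi27l2a every Young Sham point is below every other point, while in Mx1 a single Young Bleo library stands above 0.

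IFIT proteins bind viral RNA that lacks the cell's own cap marks and block its translation. Ifit1 had 445, 645, 632, 597 and 329 normalized counts in Young Sham and 1328, 822, 1068 and 1107 in Young Bleo. It had 1229, 1599 and 1158 in Aged Sham and 1486, 1266, 1252 and 1304 in Aged Bleo. Every library of the other groups was above the highest Young Sham value. The log2 fold change against Young Sham was 1.33 ± 0.225 in Aged Sham (DESeq2 adjusted p = 1.5e-06), 1.03 ± 0.206 in Young Bleo (adjusted p = 2.9e-05) and 1.33 ± 0.206 in Aged Bleo (adjusted p = 2.7e-08). Ifit1 has close copies in the mouse genome.

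The other genes of the IFIT and ISG15 system moved less. Usp18, the protease that removes ISG15 and damps type I interferon signalling at its receptor, was called in Aged Bleo alone, at 0.68 ± 0.236 (DESeq2 adjusted p = 0.041), and was not called by edgeR (adjusted p = 0.083). Its counts were 719, 606, 1005, 921 and 945 in Young Sham and 1685, 1309, 1268 and 1095 in Aged Bleo. The groups did not overlap, but the call was lost in 7 of the 16 fits that left out 1 library, with adjusted p = 0.209 without Aged Bleo 1. Isg15 had log2 fold changes of 0.55 ± 0.244, 0.51 ± 0.224 and 0.58 ± 0.224 in Aged Sham, Young Bleo and Aged Bleo, and Ifit3 had 0.47 ± 0.279, 0.67 ± 0.256 and 0.64 ± 0.256, and none of these 6 differences was called (DESeq2 adjusted p from 0.056 to 0.451). Single libraries decided some of them, since Isg15 was called in Aged Sham without Aged Sham 15 (adjusted p = 0.047) and in Aged Bleo without Aged Bleo 3 (adjusted p = 0.026), and Ifit3 was called in both injured groups without Young Sham 23 (adjusted p = 0.019 and 0.033). Ifit2 and the ligase genes Herc6 and Trim25 were not called either. Trim25, which activates RIG-I and was the gene of this class with the highest counts, had 3061, 2702, 2709, 3247 and 3167 for Young Sham, 3919, 3739, 3197 and 3395 for Young Bleo, 2434, 3369 and 3012 for Aged Sham, and 3850, 3805, 2699 and 2634 for Aged Bleo, and the groups overlapped.

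Among the other effectors, Ifi27l2a, a small membrane protein of the interferon-inducible Ifi27 family, showed the largest difference with age among well-detected genes. It had 209, 81.6, 148, 118 and 119 normalized counts for Young Sham, 1247, 968, 1057 and 311 for Young Bleo, 2496, 1192 and 395 for Aged Sham, and 2313, 2006, 646 and 547 in Aged Bleo. Its spread within the 3 higher groups was wide, and the lowest of their values, in Young Bleo 20, was still above all Young Sham values. Log2 fold changes were 3.33 ± 0.561 in Aged Sham (DESeq2 adjusted p = 1.5e-06), 2.73 ± 0.516 in Young Bleo (adjusted p = 8.5e-06) and 3.35 ± 0.516 in Aged Bleo (adjusted p = 2.0e-08), and edgeR called all 3. Without Aged Sham 13 the difference in Aged Sham was 2.56 (DESeq2 adjusted p = 0.0018). Unlike the synthetases, Ifi27l2a was highest in Aged Sham 13 among the Aged Sham libraries. A near-identical neighbour gene makes its exact count uncertain.

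Rsad2, which encodes viperin, an enzyme that makes a chain-terminating nucleotide for viral polymerases, rose with injury in young mice. Its counts were 109, 106, 209, 110 and 113 for Young Sham, 468, 595, 552 and 673 for Young Bleo, 69.9, 849 and 213 for Aged Sham, and 577, 552, 261 and 379 for Aged Bleo. Both injured groups were above all Young Sham libraries, while the Aged Sham libraries ran from the lowest to the highest value of the whole series. The log2 fold change was 2.15 ± 0.481 in Young Bleo (DESeq2 adjusted p = 0.00024) and 1.78 ± 0.481 in Aged Bleo (adjusted p = 0.0046), and in Aged Sham it was 1.55 ± 0.525 and not called (adjusted p = 0.073). The aged sham difference rested on single libraries, at 0.16 without Aged Sham 14 (adjusted p = 0.916) and 2.05, with a call, without Aged Sham 13 (adjusted p = 0.00077). Cmpk2, the neighbour of Rsad2 on chromosome 12 and the kinase that supplies its substrate, was not called in any comparison.

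Mx1, a dynamin-like GTPase that traps viral nucleocapsids, was detected in 1 of the 9 young libraries. Raw counts were 0 in all Young Sham libraries, 0, 56, 0 and 0 in Young Bleo, 0, 5 and 46 in Aged Sham, and 68, 53, 38 and 25 in Aged Bleo. All 4 Aged Bleo libraries were above every Young Sham library, and their mean was at least 9.46-fold higher against the floor of 3 counts per library, or at least 7.65-fold without the highest of them. The difference was called by DESeq2 (adjusted p = 0.0083) but not by edgeR (adjusted p = 0.064), and DESeq2 lost it without Aged Bleo 1 (adjusted p = 0.060). The DESeq2 call in Young Bleo (adjusted p = 0.029) rested on Young Bleo 18 alone, and without it the log2 fold change was 0.00 (adjusted p = 1.000). Mx2, annotated as a polymorphic pseudogene, was not called.

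Ifi44, a cytoplasmic antiviral protein, was called in Aged Bleo (0.81 ± 0.251, DESeq2 adjusted p = 0.017), with 349, 243, 287, 199 and 341 counts in Young Sham and 612, 535, 425 and 417 in Aged Bleo. These groups did not overlap. The call was lost without Aged Bleo 1 (adjusted p = 0.117), and edgeR did not call it (adjusted p = 0.059). Ifi35, a leucine zipper protein of interferon-treated cells, was the only member called lower. It had 10612, 9795, 10947, 14277 and 10072 counts in Young Sham and 5890, 6970, 8215 and 9215 in Aged Bleo. All 4 values of Aged Bleo were below those of Young Sham, and the log2 fold change was -0.56 ± 0.174 (DESeq2 adjusted p = 0.018, edgeR adjusted p = 0.059). Without Aged Bleo 1 it was -0.45 and not called (adjusted p = 0.117). The aerocyte markers, a list of 5 genes of the capillary cells specialised for gas exchange, moved with it, with summed counts of 333931 to 460834 in Young Sham and 42160 to 274329 in Aged Bleo, and their part in the result was not tested. In the other groups Ifi35 had 8769, 7897, 9211 and 8106 for Young Bleo and 14417, 9156 and 9532 for Aged Sham. All Young Bleo values were below those of Young Sham as well, without a call (-0.39 ± 0.174, DESeq2 adjusted p = 0.113), and the aerocyte sums of Young Bleo were 44192 to 195100. Bst2, Xaf1, Rtp4 and Trim30a were not called in any comparison.

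Among the sensors of nucleic acid, Zbp1 was the one called against Young Sham, in both injured groups. Zbp1 binds left-handed double-stranded nucleic acid and can start necroptosis. Its counts were 286, 133, 482, 207 and 415 for Young Sham, 781, 834, 452 and 559 for Young Bleo, 1351, 723 and 280 for Aged Sham, and 1106, 1205, 586 and 1250 for Aged Bleo. Aged Bleo did not overlap Young Sham, whereas Young Bleo 19 and Aged Sham 15 lay within its range. The log2 fold change of 1.77 ± 0.417 in Aged Bleo was called by both tools (DESeq2 adjusted p = 0.00073, edgeR adjusted p = 0.019). That of 1.11 ± 0.418 in Young Bleo was at the edge of the threshold (DESeq2 adjusted p = 0.049, edgeR adjusted p = 0.095), and 10 of the 16 fits that left out 1 library lost it. In Aged Sham it was 1.37 ± 0.455 and not called (DESeq2 adjusted p = 0.066), with 1.77 and a call without Aged Sham 15 (adjusted p = 0.0053) and 0.73 without Aged Sham 13 (adjusted p = 0.565). Between Aged Bleo and Aged Sham it differed by 0.40 ± 0.474, with no call (adjusted p = 0.730), and by 1.05 without Aged Sham 13 (adjusted p = 0.204). The cytoplasmic RNA sensors Ifih1 (MDA5), Ddx58 (RIG-I) and Dhx58 (LGP2) were not called, with log2 fold changes from -0.55 to 0.45 in the 3 comparisons. Ddx58, the sensor with the highest counts, had 1772, 2240, 2317, 1773 and 2306 for Young Sham, 1224, 1748, 1715 and 2434 for Young Bleo, 1922, 2132 and 1845 for Aged Sham, and 2039, 1557, 2220 and 1682 for Aged Bleo, and the groups overlapped. Eif2ak2, the kinase PKR that stops translation on double-stranded RNA, had 0.57 ± 0.224 in Young Bleo and 0.60 ± 0.223 in Aged Bleo, just short of a call (DESeq2 adjusted p = 0.063 and 0.060), and both were called without Young Sham 23 (adjusted p = 0.014 and 0.013).

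Macrophages express many of the called genes, and their markers were higher after bleomycin. Aged Bleo 1, which had the highest macrophage sum of all libraries, also had the highest count of Ifit1, Oas1a, Oas2, Usp18, Ifi44, Ifi27l2a, Mx1 and Rsad2 in its group. Of the other members called higher in Aged Bleo, Zbp1 was highest in Aged Bleo 5 and Oas3 in Aged Bleo 2. Without Aged Bleo 1, 7 members were called higher and 0 lower in Aged Bleo against Young Sham, against 3.83% and 1.87% of all genes. Those that remained were Ifit1, Oas1a, Oas2, Ifi27l2a, Zbp1, Oas3 and Rsad2. Aged Sham 13 and Aged Sham 15 had Ifit1 at 1229 and 1158 and Oas2 at 635 and 290, above all Young Sham values, and their macrophage sums of 7869 and 7444 were also above the highest Young Sham sum of 5336. The part of macrophage RNA in these differences was not tested.

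None of the 4 transcription factors of the set was called in any comparison. The counts of Irf7, which amplifies type I interferon production, were 1082, 1182, 1259, 1221 and 1139 for Young Sham, 2061, 1709, 711 and 1578 for Young Bleo, 1471, 1843 and 1204 for Aged Sham, and 2580, 1515, 1722 and 1158 for Aged Bleo. Young Sham was narrow, and Young Bleo 19 was below it. Its log2 fold change in Aged Bleo was 0.57 ± 0.273 (DESeq2 adjusted p = 0.182, 95% interval 0.03 to 1.10). Irf1, an activator downstream of interferon gamma, had 18184, 19728, 19850, 19608 and 19210 counts in Young Sham and 12728, 11340, 12026 and 19201 in Young Bleo. Only Young Bleo 20 lay within the young sham range, and the log2 fold change of -0.48 ± 0.192 was not called (DESeq2 adjusted p = 0.067), but without Young Bleo 20 it was -0.68 and was called (adjusted p = 0.0013). In the same way, Irf1 in Aged Bleo had -0.41 ± 0.192 (adjusted p = 0.161), and -0.60 without Aged Bleo 5 (adjusted p = 0.015), with counts of 12982, 10247, 15030 and 19737 there and of 19097, 14694 and 15539 in Aged Sham. Irf9 and Stat2, which are part of the ISRE-binding complex, had log2 fold changes from -0.02 to 0.38 in the 3 comparisons. Irf9 had 3136, 3009, 5331, 4182 and 3208 for Young Sham, 3908, 3991, 3621 and 4801 for Young Bleo, 5883, 5105 and 3783 for Aged Sham, and 4194, 4047, 2778 and 4598 for Aged Bleo. Stat2 had 1997, 1848, 2856, 1410 and 1341 for Young Sham, 1708, 1706, 1414 and 2614 for Young Bleo, 1924, 2062 and 1826 for Aged Sham, and 2142, 1242, 1832 and 2990 for Aged Bleo. The groups overlapped in both genes. The PARP9-DTX3L system, a ubiquitin ligase complex with an ADP-ribosyl transferase that acts on histones and viral proteases, had log2 fold changes from -0.27 to 0.23 and no call. Parp9, its ADP-ribosyl transferase partner, had 2041, 2226, 2266, 1659 and 1857 for Young Sham, 1939, 2225, 1770 and 2939 for Young Bleo, 1317, 2939 and 2327 for Aged Sham, and 2418, 1969, 2174 and 2883 for Aged Bleo. Parp14, a related transferase, had 2060, 1786, 2475, 2271 and 1993 for Young Sham, 2277, 2048, 2260 and 2236 for Young Bleo, 2971, 1881 and 1662 for Aged Sham, and 2521, 2550, 1878 and 2681 for Aged Bleo. Here too the groups overlapped. Parp9 and Dtx3l overlap in the genome, and with the strand setting not given their reads cannot be told apart where they overlap.

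The 7 interferon-inducible GTPases attack the vacuoles in which intracellular microbes live and are strongly induced by interferon gamma. None was called in any comparison, yet they differed widely between libraries of a group. Igtp (Irgm3) had 4686, 4203, 12345, 8780 and 5860 normalized counts in Young Sham and 5444, 8001, 4485 and 11861 in Young Bleo, and it had 13912, 17015 and 5900 in Aged Sham and 5678, 5063, 4670 and 17265 in Aged Bleo. Each group thus held a library with far more Igtp than another. Iigp1, which coats the vacuole of parasites, had 1405, 1031, 4433, 1418 and 1646 counts in Young Sham and 2431, 1894, 1588 and 7347 in Aged Bleo. Gbp7, a guanylate-binding protein, had 3077, 3470, 8115, 3874 and 3713 in Young Sham and 3749, 2849, 2890 and 8378 in Aged Bleo.

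The same libraries were high in each GTPase. All 7 genes were highest in Young Sham 23 within Young Sham, in Young Bleo 20 within Young Bleo and in Aged Bleo 5 within Aged Bleo, and 6 of the 7 were highest in Aged Sham 13 within Aged Sham, where Igtp was highest in Aged Sham 14. All 7 were lowest in Young Bleo 19 and Aged Sham 15. Averaged over the 7 genes, the log2 difference from the group mean was 1.14 in Aged Bleo 5, 0.85 in Young Sham 23, 0.82 in Young Bleo 20 and 0.51 in Aged Sham 13. Over the 16 libraries, after the group mean of each gene was removed, the Pearson correlations of the 21 pairs of GTPases had a median of 0.90 and ran from 0.81 to 0.97. Over the 861 pairs of all 42 genes the median was 0.20. Between the GTPases and Ifit1, Oas1a, Oas2 and Ifi27l2a the median was 0.04 over 28 pairs. These correlations are a description over genes that share libraries and depth. All 5 GTPases with a promoter in the table held an ISRE core match, and 2 of them a GAS match. Of the 6 members with a promoter that were called higher in at least 1 comparison, 4 held an ISRE core match, and of the other 24 members 13 did.

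**Figure D5:**
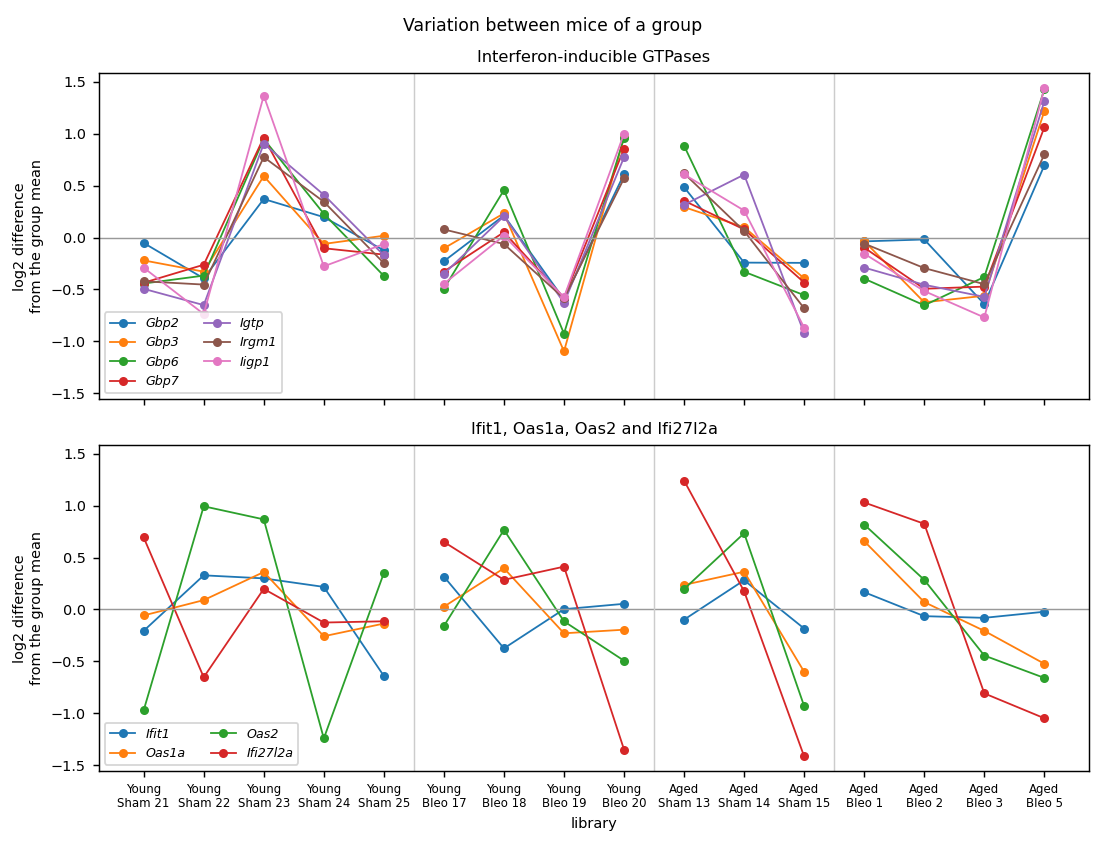
The vertical axis is the difference of log2(normalized count + 1) from the mean of the group, each line is a gene and each position a library, with grey lines between the groups. The 7 GTPases in the upper panel peak together in Young Sham 23, Young Bleo 20 and Aged Bleo 5, and their median correlation with Ifit1, Oas1a, Oas2 and Ifi27l2a in the lower panel was 0.04.

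Of the transcription factors, Irf9 had Pearson correlations of 0.68 to 0.90 with the GTPases over the 16 libraries, Stat2 had 0.55 to 0.81, Irf1 had 0.57 to 0.73 and Irf7 had 0.04 to 0.25. Some of the libraries in which the GTPases were high differed in other ways. The summed count of 5 T and NK cell markers was 2233 in Aged Bleo 5 and 651 in Aged Sham 13, the 2 highest of the series, and 29.8 to 197 in the other 14. Young Bleo 20 had the highest sum of its group at 106, and Young Sham 24 was above Young Sham 23, at 197 and 133. Young Bleo 20 and Aged Bleo 5 had the lowest macrophage sums of their groups, at 17953 and 26669, and Young Bleo 20 had the highest aerocyte sum of its group, at 195100 against 44192 to 85353. Ifng, the gene for interferon gamma that T and NK cells make, had 55.2 normalized counts in Aged Bleo 5 and at most 6.40 in any other library. The value of 6.40 was in Aged Sham 15, where the GTPases were lowest. Ifng had 5.41 counts in Young Bleo 20 and 0 in both Young Sham 23 and Aged Sham 13. Young Sham 23 and Aged Sham 13 were the shallowest libraries. The part of these cells and of depth in the variation was not tested.

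The other genes of the pathway were listed as 42 ligands, receptors, kinases and STATs, upstream sensors, inhibitors and chemokines, of which 34 could be tested. Of the 8 interferon genes listed, Ifng and Ifnk alone had a count in any library. The type I receptor genes Ifnar1 and Ifnar2 were not called. Ifngr1, the ligand-binding chain of the interferon gamma receptor, rose by a log2 fold change of 1.12 ± 0.307 in Young Bleo (DESeq2 adjusted p = 0.0036) and 1.05 ± 0.307 in Aged Bleo (DESeq2 adjusted p = 0.010), both against Young Sham. Its partner chain Ifngr2 fell, at -1.13 ± 0.196 (DESeq2 adjusted p = 1.0e-06) and -0.81 ± 0.196 (adjusted p = 0.0011). Among the injured libraries Ifngr2 was highest in Aged Bleo 3, Aged Bleo 5 and Young Bleo 20, at 5525, 5109 and 4465 counts. These also had the highest aerocyte sums of the injured libraries, and the part of aerocytes in the result was not tested. Ifngr1 had 45437, 33079, 15737 and 13787 counts in Aged Bleo and 12237 to 14020 in Young Sham, so that Aged Bleo 5 lay within the Young Sham range, and the libraries with the highest macrophage sums, Aged Bleo 1 and Aged Bleo 2, were the highest. Its call in Aged Bleo was lost without Aged Bleo 1 (0.68, adjusted p = 0.155) and without Aged Bleo 2 (0.94, adjusted p = 0.069). None of Jak1, Jak2, Tyk2 and Stat3 was called in any comparison.

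Of the 34 tested pathway genes 4 were called higher and 0 lower in Aged Sham (2.24% and 1.12% of all genes), 6 higher and 3 lower in Young Bleo (7.57% and 6.35%), and 8 higher and 2 lower in Aged Bleo (6.58% and 3.14%), each against Young Sham. All 3 interferon-induced chemokines listed, which attract T cells through CXCR3, were called higher in Aged Sham. Cxcl10 had 16.1, 3.30, 28.7, 16.4 and 19.6 normalized counts for Young Sham, 117, 26.0, 57.3 and 69.5 for Young Bleo, 194, 194 and 261 for Aged Sham, and 180, 184, 130 and 324 in Aged Bleo. Both aged groups were above all young libraries. Its log2 fold change was 3.74 ± 0.528 in Aged Sham (DESeq2 adjusted p = 1.8e-09), 2.06 ± 0.493 in Young Bleo (adjusted p = 0.00069) and 3.65 ± 0.487 in Aged Bleo (adjusted p = 4.3e-11). Cxcl9, a chemokine induced above all by interferon gamma, had 132, 15.0 and 114 counts in Aged Sham and 0, 0, 0, 0 and 13.7 in Young Sham (DESeq2 adjusted p = 0.033, edgeR adjusted p = 0.147), and its call was lost in 6 of the 16 fits, among them those without any one of the Aged Sham libraries (adjusted p up to 0.183). The macrophage sums given above were also higher in Aged Sham than in Young Sham. So was the summed count of 3 B cell markers, at 330 to 577 in Aged Sham and 40.4 to 234 in Young Sham. In Young Bleo, where Cxcl10 was below Aged Sham, the macrophage sums were 17953 to 60421. The part of these cells in the chemokine differences was not tested. Socs3, an inhibitor of cytokine signalling through JAK kinases, was called in all 3 comparisons, at 1.26 ± 0.297, 1.95 ± 0.273 and 2.42 ± 0.273 in Aged Sham, Young Bleo and Aged Bleo (DESeq2 adjusted p = 0.0023, 4.9e-10 and 1.8e-15), and the call in Aged Sham was lost without Aged Sham 14 (1.01, adjusted p = 0.079). Socs1, the inhibitor more closely tied to interferon, was not called. Tmem173 (STING), the adaptor of the cytoplasmic DNA sensor, rose in both injured groups by 2.32 ± 0.480 and 2.10 ± 0.480 (adjusted p = 6.1e-05 and 0.00047). Its counts were 3547, 4126, 589 and 929 in Aged Bleo and 373 to 760 in Young Sham, so that Aged Bleo 3 lay within the Young Sham range and the highest were again Aged Bleo 1 and Aged Bleo 2. Mavs, the adaptor of the RNA sensors, fell by 0.70 and by 0.72 on the log2 scale (DESeq2 adjusted p = 0.046 and 0.049, neither called by edgeR), and 7 and 11 of the 16 fits that left out 1 library lost these calls (adjusted p up to 0.172 and 0.217). Like Ifngr2, Mavs was highest among the injured libraries in Young Bleo 20, Aged Bleo 3 and Aged Bleo 5, at 4842, 4243 and 3729. The part of aerocytes was not tested here either. Tlr7, an RNA sensor of myeloid cells, was called higher in both injured groups by DESeq2 and not by edgeR, with 152, 163, 101 and 51.9 counts in Aged Bleo and 0 to 15.7 in Young Sham, and Irf5 and Irf8, also typical of myeloid cells, were called higher in Aged Bleo. Tlr7 lost its call in 7 of the 16 fits in Young Bleo (adjusted p up to 0.143) and without Aged Bleo 2 in Aged Bleo (adjusted p = 0.050), and Irf8 lost it without Aged Bleo 1 (adjusted p = 0.079). The macrophage sums above were also higher in the injured groups in which Tlr7, Irf5, Irf8, Ifngr1 and Tmem173 were called. The match did not hold in every library. Aged Bleo 3 had a macrophage sum of 44416 and 589 counts of Tmem173, and Young Bleo 20 had 17953 and 1491. The part of macrophage RNA in these differences was not tested.

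Injury in aged mice was then compared with the sham mice of the same age. No member was called between Aged Bleo and Aged Sham, where DESeq2 called 3.40% of all genes higher and 2.45% lower, and edgeR called no member (0.448% and 0.349% of all genes). At an unadjusted p under 0.05 both tools had Oas2 higher and Ifi35 lower. Over all genes 3552 were under 0.05 with DESeq2 and 2988 of 18324 with edgeR. Oas2 differed by 1.39 ± 0.526 (95% interval 0.35 to 2.42, DESeq2 adjusted p = 0.095), and the counts of 635, 922 and 290 in Aged Sham did not overlap those of 936 to 2607 in Aged Bleo. For Ifit1 the difference was 0.00 ± 0.233 (95% interval -0.46 to 0.46), and for Ifi27l2a it was 0.02 ± 0.584 (interval -1.13 to 1.16). The interval of Ifi27l2a still allowed a change of more than 1 on the log2 scale in either direction. Without Aged Sham 13 its difference was 0.80 (DESeq2 adjusted p = 0.532). Leaving out Aged Sham 14 brought 2 calls higher, Oas2 at 1.80 (adjusted p = 0.036) and Rsad2 at 1.62 (adjusted p = 0.0059), and 1 lower, Ifi35 at -0.66 (adjusted p = 0.040). Ifi35 was also called without Aged Bleo 5 (-0.65, adjusted p = 0.026) and without Young Sham 24 (-0.55, adjusted p = 0.048). Of the 34 pathway genes Ifngr1, Tmem173 and Socs3 were called higher in this comparison by DESeq2 and none of the 3 by edgeR, and the calls of Ifngr1 and Socs3 were lost without Aged Bleo 1 (adjusted p = 0.096 and 0.077) and without Aged Sham 13 (adjusted p = 0.074 and 0.055).

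Between Aged Bleo and Young Bleo no member was called by either tool, where DESeq2 called 0.585% of all genes higher and 0.406% lower and edgeR 0.0382% and 0.00546%. Oas3 alone had an unadjusted p under 0.05 in both tools, at 4.24 ± 1.48 (DESeq2 adjusted p = 0.153). Over all genes 2005 were under 0.05 with DESeq2 and 1604 of 18324 with edgeR. Oas3 was called without Aged Bleo 3 (4.65, adjusted p = 0.022). It was not called without Aged Bleo 2 (3.64, adjusted p = 0.374) or without Young Bleo 20 (4.93, adjusted p = 0.093). Mx1, at 1.22 ± 2.01, was called without Young Bleo 18 (adjusted p = 0.016), the one young library with a count. The difference in Ifit1 was 0.29 ± 0.216 (95% interval -0.13 to 0.72), in Oas2 it was 0.52 ± 0.487 (interval -0.43 to 1.48) and in Rsad2 it was -0.37 ± 0.504 (interval -1.36 to 0.62). A difference within these intervals between the injured groups may still exist.

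The last contrast tested whether the response to bleomycin itself differed with age, as the aged response minus the young one. No member was called by either tool, where DESeq2 called 0.137% of all genes higher and 0.240% lower and edgeR 0 and 0.00546%. Over all genes 1590 had an unadjusted p under 0.05 with DESeq2 and 1282 of 18324 with edgeR. At that level both tools had the same 5 members lower, Oas2, Oas1a, Rsad2, Ifi27l2a and Ifit1. The differences were -1.04 ± 0.312 for Ifit1 (DESeq2 adjusted p = 0.128), -1.03 ± 0.389 for Oas1a, -1.82 ± 0.703 for Oas2, -1.92 ± 0.727 for Rsad2 (each adjusted p from 0.351 to 0.375) and -2.71 ± 0.779 for Ifi27l2a (adjusted p = 0.094). Ifi27l2a passed the threshold when Aged Bleo 1, Aged Bleo 2, Aged Sham 15 or Young Bleo 20 was left out (-3.08, -2.95, -3.15 and -3.00, with adjusted p from 0.013 to 0.047), and it was -1.94 without Aged Sham 13 (adjusted p = 0.365). Rsad2 passed when Aged Sham 13 was left out (-2.42, adjusted p = 0.016) and was -0.53 without Aged Sham 14 (adjusted p = 0.838). This contrast holds the sham groups, in which 4 of these 5 genes were already called higher with age.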

How the data were processed

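RNA was sequenced from sorted lung ECs in 16 libraries. Per the submitters' processing notes and the study's methods, the authors used STAR 2.5.2b with the mm10 genome, and Subread's featureCounts for the counting. The deposited table holds a raw count and an FPKM for each gene and library. The library kit is given as SMART-Seq with Nextera in the labels and as TruSeq with poly(A) selection in the study's methods. Strandedness, gene annotation and the treatment of multi-mapping reads are not given in the sources used here, so genes with close copies are uncertain.

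The model was fitted to the counts of all 43346 genes, of which 18515 received an adjusted p against Young Sham, with DESeq2 1.42.0 (R 4.3.3, Wald test, unshrunken) over all 16 libraries in 1 model with group as its term, the tool that the study names. edgeR 4.0.16 (quasi-likelihood), limma 3.58.1 on log2(FPKM + 0.1) with a mean FPKM of at least 0.1, TMM factors, a filter of 10 counts in 3 libraries, the groups of a comparison alone and leaving out each library were the alternatives. Both count tests were tested on simulated data of Aged Sham against Young Sham, where the share of false calls exceeded the threshold with DESeq2 and not with edgeR. All 25 replicate pairs differed by more than sampling noise. The labels give no batch, and the litters are not given. In the study's methods the RNA integrity numbers, which score how intact the RNA was, reach lower in both sham groups than in the injured groups. The part of RNA integrity in the results was not tested. Members of the set, classes, marker and pathway lists were chosen with earlier results of these data known. Values per library are given for the transcription factors, for the gene of each class with the largest change with age and that with the highest count, and for the called genes with the highest and lowest changes in a comparison. Those of Oasl1, Rsad2, Iigp1 and Gbp7 were added after their values were seen. Promoters and their coordinates are those of RefSeq. A signalling gene of the pathway list is not reported here.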

Additional observations from a re-analysis of the deposited data

Results flagged for a closer look

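A library stood apart from the rest of its group in 12 of the 124 groups of 4 or 5 libraries that were examined, where chance gives about 1 in 20 for independent groups. These groups share the same libraries and the levels of many genes move together, with a median correlation of 0.90 among the GTPases, so the number cannot be read against that rate. Of these 12, 6 were GTPases. Aged Bleo 5 was high in Gbp6 (1543 normalized counts, next 440), Gbp7 (8378, next 3749), Igtp (17265, next 5678) and Iigp1 (7347, next 2431), and Young Sham 23 was high in Gbp7 (8115, next 3874) and Iigp1 (4433, next 1646). Young Sham 23 was also high in Ifit2 (896, next 493) and Rsad2 (209, next 113). The others were Mx1 in Young Bleo 18 (58.2, the rest at 0), Oasl2 in Aged Bleo 1 (3647, next 3204), Ifi35 in Young Sham 24 (14277, next 10947) and Trim30a in Young Bleo 17, which was low (1404, next 1867).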

How the results depend on the processing

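Of the 24 calls of members against Young Sham, DESeq2 with TMM factors kept 24, the count filter kept 24, edgeR kept 16, the 2 groups alone kept all 23 that had an adjusted p, and limma on FPKM kept 15 of 20. Genes called higher fell from 5 to 2 in Aged Sham and from 10 to 6 in Aged Bleo with limma, and from 8 to 5 in Young Bleo with edgeR, which also called 0 lower in Aged Bleo in place of 1. Oas3 and Mx1, with a mean FPKM under 0.1, were not tested by limma, so part of its falls were genes left out. Of all 16133 genes that it tested, limma called 79 higher in Aged Sham and 753 in Aged Bleo, each against Young Sham. limma moved the median of all genes to -0.12 in Aged Sham against Young Sham and to 0.12 in Aged Bleo against Aged Sham, where the medians of DESeq2 were 0.02 and 0.01. Over all genes edgeR called 128 higher and 30 lower in Aged Sham, against 415 and 207 by DESeq2, and 82 and 64 in Aged Bleo against Aged Sham, where DESeq2 called 630 and 453. Between Aged Bleo and Young Bleo the counts were 7 and 1 against 111 and 77, and for the difference of responses 0 and 1 against 28 and 49.

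When each library was left out in turn, 4 to 8 members were called higher and 0 lower in Aged Sham (4 without Aged Sham 14), 5 to 9 higher and 0 to 2 lower in Young Bleo (5 without Young Bleo 18, 2 lower without Young Bleo 20), and 7 to 12 higher and 0 to 2 lower in Aged Bleo (7 without Aged Bleo 1), each against Young Sham. Between Aged Bleo and Aged Sham 0 to 2 were higher and 0 to 1 lower, between Aged Bleo and Young Bleo 0 to 1 higher and 0 lower, and in the difference of responses 0 higher and 0 to 1 lower. Over all genes the calls also moved by more than 1.5 times. In Aged Sham 197 were higher without Aged Sham 14 and 130 lower without Young Sham 22. In Aged Bleo against Young Sham 704 were higher and 344 lower without Aged Bleo 1, and 764 and 350 without Aged Bleo 2, in place of 1219 and 582. Against Aged Sham 246 were higher and 228 lower without Aged Bleo 1, 404 higher without Aged Bleo 2, 345 higher without Aged Sham 15 and 700 lower without Aged Bleo 3. Between Aged Bleo and Young Bleo the counts ran from 53 higher without Aged Bleo 5 to 360 without Young Bleo 20, and from 36 lower without Young Bleo 19 to 155 without Aged Bleo 1. In the difference of responses they ran from 14 higher without Young Bleo 18 or Young Sham 22 and 22 lower without Young Bleo 19 to 130 and 96 without Young Bleo 20. Mx1 in Young Bleo ran from 0.00 without Young Bleo 18, since the other 3 libraries had no count, to 6.55. The cause of the other shifts was not tested. No paired analysis was possible because the numbers in the titles do not repeat between groups. Genes near 0 counts, above all Oas3 and Mx1, rest on few reads, and the part of depth in their values was not tested. With 3 to 5 libraries per group a difference that was not called may still exist.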
